A study of Rattus norvegicus with 12 samples.

Results

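The complement components and regulators described here are 9 genes taken by symbol: C1r, C1s, Serping1, C2, Cfb, C3, C6, C7 and Cd55. Of these, 8 have a line among the 14636 genes of the deposited table, and all 8 passed the filter on low values that left 11302 genes for testing. C7 is not analysed here. Levels are FPKM (fragments per kilobase of transcript, scaled to the mapped fragments of the library), which are scaled to transcript length and so can be set side by side between genes. The filter asked for a mean of 0.5 FPKM over the 12 libraries, and C6 passed it only through CF Yap (cardiac fibroblasts with Yap siRNA). C6 averaged 11.4 FPKM there, 0.887 FPKM in control fibroblasts and 0.0967 FPKM in each cardiomyocyte group. Its place in the counts of 8 below therefore depends on the group where it is high.

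Complement is a cascade of blood and tissue proteins that tags targets, cuts its own components in sequence and ends in a membrane pore. C1r and C1s are the serine proteases of the C1 complex that starts the classical pathway, and C1 inhibitor, encoded by Serping1, inactivates both. C2 and factor B (Cfb) supply the protease subunits of the classical and alternative C3 convertases, C3 is the component on which the pathways meet, C6 and C7 join the pore, and Cd55 (decay-accelerating factor) is a membrane protein that takes convertases apart. Plasma complement comes mostly from the liver, but fibroblasts and other stromal cells also make components locally.

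The cells were primary cultures from the hearts of Sprague Dawley rats aged 2 days, split by Percoll gradient into cardiomyocytes (CM) and cardiac fibroblasts (CF). Each type was kept in medium with 15% fetal bovine serum and penicillin-streptomycin, and after 16 h received a universal negative control siRNA or 2 siRNAs against Yap at 25 nM each. RNA was collected 48 h after transfection. Each of the 4 groups (CM control, CM Yap, CF control, CF Yap) has 3 libraries. No group received only 1 of the Yap siRNAs, and the labels name no separate animals or cultures for the libraries, so each p-value below rests on library-to-library spread that may be technical.

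Both siRNA groups had lost most Yap1 RNA, which averaged 59.7 FPKM in CM control and 5.44 FPKM in CM Yap, and 35.4 FPKM in CF control and 4.27 FPKM in CF Yap. The summed level of 8 cardiomyocyte markers was 29524.5 to 34890.6 FPKM in CM libraries and 782.0 to 1070.4 FPKM in CF libraries. For 8 fibroblast markers it was 16638.8 to 17662.0 FPKM in CF libraries and 335.0 to 490.5 FPKM in CM libraries. The cell labels thus matched their defining markers, with a small share of the other type's markers in each culture. In such bulk cultures fewer cells of a type and less RNA per cell cannot be told apart.

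Promoter sequences were held for 4 members, and 3 are shown because these genes stand for the central component (C3), the initiating protease (C1r) and the pore (C6), which rose together in fibroblasts. Each window runs from 250 bases before to 50 bases after the RefSeq start of the gene in build GRCr8, 5′ to 3′ on the gene's own strand. Capitals mark matches on either strand to the TEAD motif GGAATG (TEAD factors carry Yap to DNA) or the C/EBP motif TTNNGNAA.
C3, GRCr8 chr9:2201290-2201589, minus strand: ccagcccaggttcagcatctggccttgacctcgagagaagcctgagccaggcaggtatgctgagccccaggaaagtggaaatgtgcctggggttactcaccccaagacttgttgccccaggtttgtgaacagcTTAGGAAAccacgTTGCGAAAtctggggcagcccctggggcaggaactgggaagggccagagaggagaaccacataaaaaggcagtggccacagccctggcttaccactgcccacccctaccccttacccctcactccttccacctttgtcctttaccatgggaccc
C1r, GRCr8 chr4:159098763-159099062, plus strand: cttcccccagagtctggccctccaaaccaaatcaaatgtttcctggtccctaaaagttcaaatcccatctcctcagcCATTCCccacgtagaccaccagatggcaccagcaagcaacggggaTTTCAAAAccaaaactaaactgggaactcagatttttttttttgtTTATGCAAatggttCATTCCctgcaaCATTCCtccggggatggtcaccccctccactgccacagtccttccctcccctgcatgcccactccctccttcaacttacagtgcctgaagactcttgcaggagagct
C6, GRCr8 chr2:55573383-55573682, plus strand: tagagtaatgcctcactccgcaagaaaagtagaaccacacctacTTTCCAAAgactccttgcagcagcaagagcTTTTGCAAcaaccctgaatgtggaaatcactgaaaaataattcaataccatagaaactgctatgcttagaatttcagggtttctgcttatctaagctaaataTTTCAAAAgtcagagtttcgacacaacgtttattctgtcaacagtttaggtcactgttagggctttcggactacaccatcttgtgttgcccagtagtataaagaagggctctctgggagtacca

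The C1r window held 3 TEAD motif matches, which start 173, 69 and 57 bases before the gene's start. Among all 33469 windows in the table, 14.2% held at least 1 TEAD match and 0.0956% held at least 3. The windows of C3, C6 and Cd55 held 0. The C/EBP motif matched 2 times in C3, 3 times in C6, 2 times in C1r and 0 times in Cd55. Of all windows, 41.3% held at least 1 C/EBP match, 14.1% at least 2 and 4.07% at least 3. No match overlapped another. The STAT motif TTCNNNGAA (8.87% of windows), the IRF motif (3.92%) and the NF-kappaB motif (7.51%) had 0 matches in these 4 windows. A match is a description of letters in the window and not of a bound site.

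**Figure D1:**
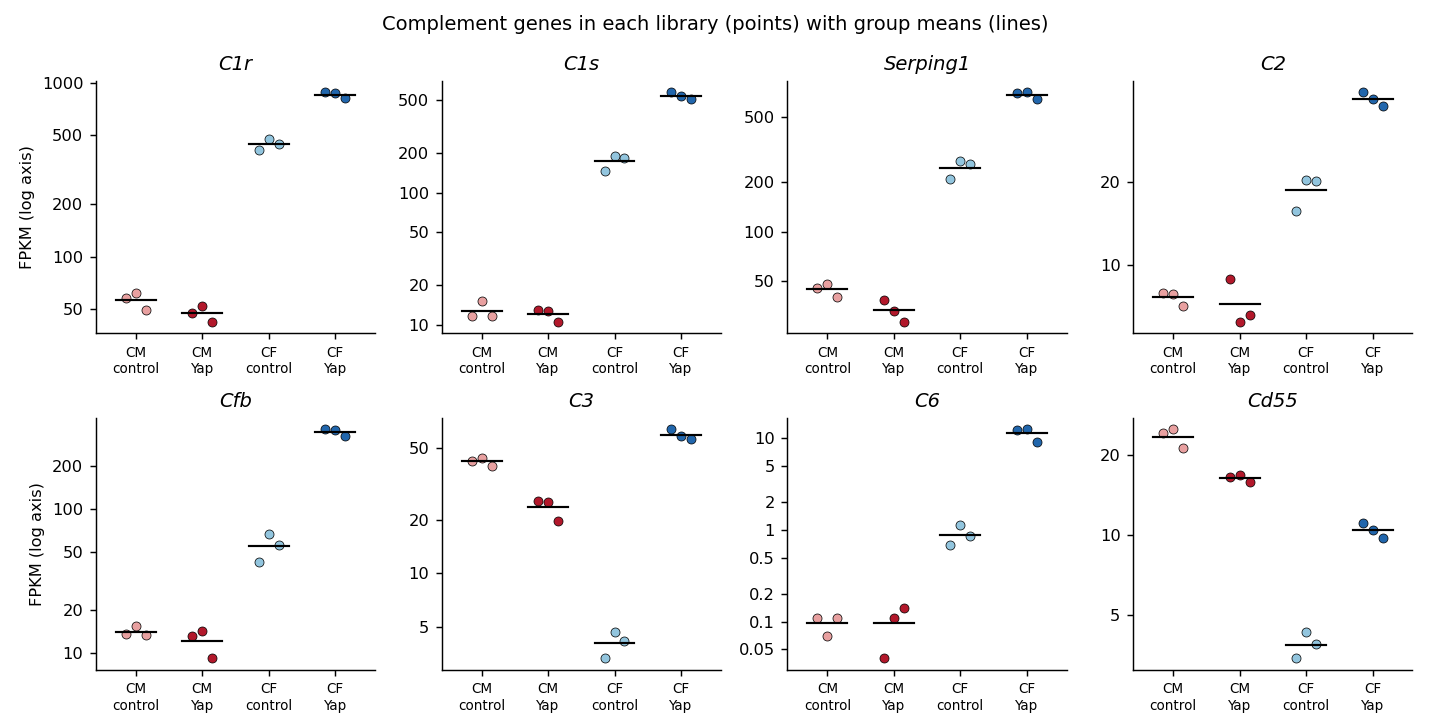
FPKM of the 8 members on log axes, with 1 point per library and a line at the group mean of 3 libraries (CM, cardiomyocytes; CF, cardiac fibroblasts). All 8 genes lie higher in CF Yap than in CF control with no overlap, and C3 and Cd55 are the members that lie higher in CM control than in CF control.

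The first comparison asked how Yap siRNA changed complement genes in cardiac fibroblasts. All 8 members rose, from 1.93 times the control level for C1r to 14.6 times for C3, and no Yap library overlapped a control library in any of them. The background was 20.4% of all tested genes called higher and 10.5% called lower, and 31.4% were higher without overlap. The median log2 change was 1.56 over the members and 0.07 over all genes tested. The members were chosen with earlier results of these data known, so setting them beside all genes is no independent test. The summed FPKM of the 8 genes was 833.5, 1034.1 and 973.9 in the 3 CF control libraries and 2642.8, 2589.4 and 2410.0 in the 3 CF Yap libraries. That was 0.147% to 0.182% of all FPKM before and 0.428% to 0.464% after.

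C1r was the most abundant member in both fibroblast groups. It stood at 410.83, 478.25 and 444.97 FPKM in CF control and at 881.79, 871.55 and 820.99 FPKM in CF Yap. Every Yap library was above every control library, and the log2 change was 0.95 ± 0.09 (SE, adjusted p = 1.52e-06). C1s, whose enzyme cuts C4 and C2, stood at 146.79, 190.3 and 183.77 FPKM against 574.01, 538.32 and 515.49 FPKM. Its groups did not overlap either, and its log2 change was 1.65 ± 0.11 (adjusted p = 4.8e-08). In the RefSeq order of genes C1r and C1s are next neighbours on chromosome 4.

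The inhibitor of these proteases rose as well. Serping1 stood at 209.6, 267.99 and 259.4 FPKM in CF control and at 699.07, 703.91 and 641.09 FPKM in CF Yap, a log2 change of 1.47 ± 0.11 (adjusted p = 1.31e-07). With Yap siRNA it ranked 141 among all genes by mean FPKM, between C1r at 118 and C1s at 160, and Cfb followed at 232.

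The convertase genes C2 and Cfb, next neighbours on chromosome 20, both rose. C2 stood at 15.77, 20.38 and 20.28 FPKM in CF control and at 42.31, 40.18 and 37.91 FPKM in CF Yap (log2 change 1.06 ± 0.12 SE, adjusted p = 9e-06). Cfb stood at 43.0, 67.06 and 56.56 FPKM against 358.24, 354.33 and 319.56 FPKM (2.63 ± 0.15, adjusted p = 1.02e-08). The controls of Cfb were spread more widely than those of C2, and the lowest Yap library of Cfb was above the highest control.

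C3 had the greatest log2 change of the members in fibroblasts, from a low starting level. It stood at 3.36, 4.69 and 4.17 FPKM in CF control and at 63.91, 58.2 and 56.06 FPKM in CF Yap (3.58 ± 0.11, adjusted p = 8.75e-12). Its rank by mean FPKM went from 8363 to 1553. C6, of the terminal pathway, stood at 0.69, 1.12 and 0.85 FPKM in CF control and at 12.42, 12.52 and 9.17 FPKM in CF Yap. Its mean was 12.8 times higher and its log2 change 2.71 ± 0.13 (adjusted p = 2.52e-09), a size that a pseudocount of 0.1 moved to 3.55 and a pseudocount of 5 to 1.47 (both called).

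Cd55, the membrane regulator, was among the least abundant members in fibroblasts. It stood at 3.42, 4.28 and 3.86 FPKM in CF control and at 11.07, 10.38 and 9.68 FPKM in CF Yap (1.23 ± 0.09, adjusted p = 1.31e-07; 0.80 with a pseudocount of 5). The groups did not overlap.

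Markers of other cell types were followed in the same libraries. In fibroblast cultures 10 macrophage markers summed to 238.9 to 261.5 FPKM in control and 248.0 to 282.4 FPKM in Yap libraries, with 2 of 9 tested called higher. The 8 fibroblast markers summed to 16638.8 to 17611.9 FPKM and 17462.4 to 17662.0 FPKM, with 4 of 8 called higher. The largest parts of that sum were Col1a1, Col1a2 and Col3a1, at 6938.8, 4346.9 and 4029.5 FPKM in CF control, which were not called. The 4 called were Pdgfra (3.44 times the control level), Dcn (3.32 times), Lum (2.02 times) and Postn (1.75 times). Endothelial markers summed to 168.3 to 193.0 FPKM in control and 212.0 to 233.3 FPKM in Yap libraries (3 of 8 higher), with 3 of the 8 averaging under 0.5 FPKM in both fibroblast groups. Most of that sum was Eng, at 160.1 to 183.58 FPKM in control and 196.07 to 218.6 FPKM in Yap libraries. Eng was not called (limma, adjusted p = 0.0555). The markers called higher were Pecam1, Cdh5 and Tek. Pecam1 and Cdh5 averaged 1.09 and 1.43 FPKM in CF control. Tek averaged 4.62 FPKM in CF control and 7.62 FPKM in CF Yap (log2 change 0.61, limma, adjusted p = 9.79e-05), without overlap. Mesothelial markers summed to 32.8 to 37.4 FPKM and to 50.5 to 55.5 FPKM (2 of 5 higher, 1 lower), and smooth muscle and pericyte markers summed to 353.2 to 396.8 FPKM and to 243.2 to 258.3 FPKM (3 of 8 higher, 3 lower). Over all genes tested in fibroblasts, 20.4% were called higher and 10.5% lower. The part of these cells in the complement values was not tested.

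The second comparison asked the same of cardiomyocyte cultures. There 4 of 8 members fell (C3, Cd55, Serping1 and C1r) and 0 rose, with 3 of the 4 falling without overlap between groups. Over all genes 30.5% were lower without overlap. Of all genes tested, 28.7% were called lower and 21.0% higher. The member median was −0.23 and that of all genes −0.06 on the log2 scale.

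C3 stood at 42.58, 44.31 and 39.71 FPKM in CM control and at 25.5, 25.21 and 19.64 FPKM in CM Yap. Its mean fell to 0.556 of control (log2 change −0.83 ± 0.11 SE, adjusted p = 2.09e-05). Cd55 stood at 24.09, 24.99 and 21.24 FPKM against 16.47, 16.86 and 15.84 FPKM (−0.49 ± 0.09, adjusted p = 0.000417). Both genes were lower in every Yap library than in any control library.

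Serping1 fell from 45.37, 48.1 and 40.33 FPKM to 38.64, 32.79 and 28.4 FPKM (−0.42 ± 0.11, adjusted p = 0.00494). C1r stood at 57.63, 61.62 and 49.13 FPKM and at 47.69, 51.78 and 42.35 FPKM, and its groups overlapped. Its log2 change of −0.24 ± 0.09 (adjusted p = 0.0354) was no longer called under 8 alternatives, with adjusted p over all alternatives from 0.00626 to 0.163. Those were no filter (0.0577), median-of-ratios scaling (0.152), no variance trend (0.062), only the CM groups in the fit (0.0905), and leaving out CM control 1 (0.102), CM control 2 (0.163), CM Yap 1 (0.0614) or CM Yap 3 (0.149).

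The other members did not pass in cardiomyocytes, and their groups overlapped. C1s stood at 11.69, 15.06 and 11.67 FPKM against 12.84, 12.63 and 10.56 FPKM (−0.08 ± 0.11, adjusted p = 0.564). Cfb stood at 13.57, 15.51 and 13.34 FPKM against 13.04, 14.3 and 9.2 FPKM (−0.22 ± 0.15, adjusted p = 0.238). C2 lay between 6.24 and 8.9 FPKM in all 6 libraries (−0.08 ± 0.12, adjusted p = 0.602).

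C6 was at the edge of detection in cardiomyocytes. Its values were 0.11, 0.07 and 0.11 FPKM in CM control and 0.04, 0.11 and 0.14 FPKM in CM Yap, and each is within 0.005 FPKM of 1 to 4 multiples of a step of 0.036 FPKM. Such steps are what single fragments would give, so a fall or a small change of C6 was not detectable at this depth in these cells. Its log2 change was 0.00 ± 0.13 (SE, adjusted p = 0.998).

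Among markers of other cells, those of endothelium summed in cardiomyocyte cultures to 505.1 to 600.2 FPKM in control and 361.6 to 419.5 FPKM in Yap libraries, with 4 of 8 called lower and 1 higher. The macrophage sum was 140.3 to 175.6 FPKM in control and 129.1 to 183.3 FPKM in Yap libraries (2 of 9 lower, 1 higher). Fibroblast markers, on 335.0 to 490.5 FPKM and 379.1 to 468.4 FPKM, had 3 of 8 called higher and 0 lower. Mesothelial markers summed to 12 to 21.0 FPKM and 9.3 to 12.7 FPKM (3 of 5 lower). Smooth muscle and pericyte markers summed to 125.3 to 140.5 FPKM and 116.7 to 138.6 FPKM (6 of 8 higher, 2 lower). Over all genes tested in cardiomyocytes, 21.0% were called higher and 28.7% lower. The part of these cells in the falls of C3, Cd55, Serping1 and C1r was not tested.

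**Figure D2:**
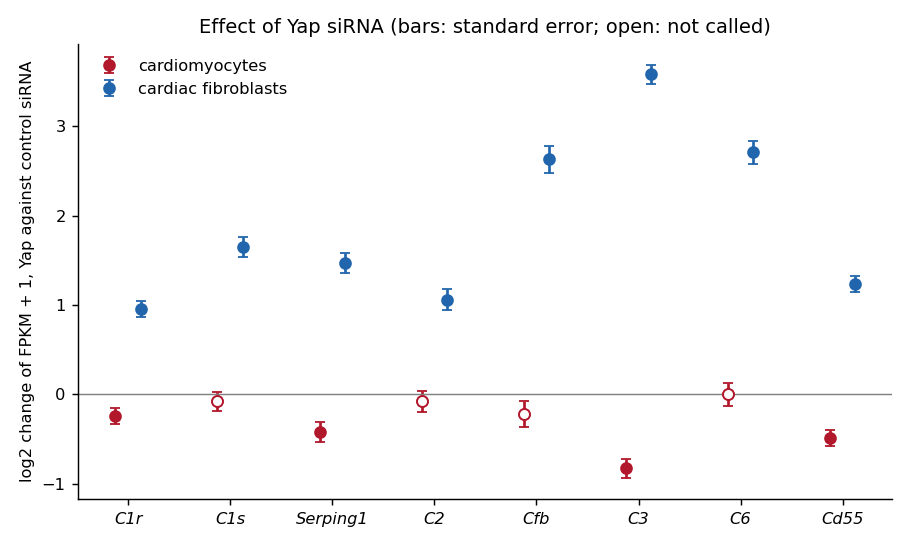
Log2 change of FPKM + 1 with Yap siRNA against control siRNA for each member, with limma's standard error as bars, in cardiomyocytes and in cardiac fibroblasts. Fibroblast values lie between 0.95 and 3.58, and cardiomyocyte values between −0.83 and 0.00, with open points for the 4 genes that were not called.

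The effect of Yap siRNA differed between the cell types for all 8 members in the interaction term, with cardiomyocytes lower relative to fibroblasts each time. Over all genes 23.7% were called lower in this term and 11.7% higher. The difference was greatest for C3 (−4.41 ± 0.15 on the log2 scale, adjusted p = 1.23e-10) and smallest for C2 (−1.14 ± 0.17, adjusted p = 0.000133). The member median was −1.81, against −0.13 for all genes. This term uses the same libraries as the comparisons above and adds no independent evidence to them.

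Under control siRNA the levels of all 8 members differed between cardiomyocytes and fibroblasts. Fibroblasts had the higher level of 6 members (C1s, C1r, Serping1, Cfb, C2 and C6), while C3 and Cd55 were higher in cardiomyocytes. The background was 26.4% of genes called lower and 42.0% called higher in cardiomyocytes. C1s averaged 174 ± 23.5 FPKM (SD, n = 3) in CF control and 12.8 ± 1.95 FPKM in CM control, 13.6 times as much in fibroblasts (−3.66 ± 0.11 SE for cardiomyocytes minus fibroblasts, adjusted p = 1.11e-13). C3 averaged 42.2 ± 2.32 FPKM in CM control and 4.07 ± 0.67 FPKM in CF control, 10.4 times as much in cardiomyocytes (3.10 ± 0.11 SE, adjusted p = 7.65e-13). Cd55 was 6.08 times higher in cardiomyocytes (2.33 ± 0.09, adjusted p = 2.53e-12). Endothelial markers were also higher in the cardiomyocyte cultures, with 8 of 8 called higher and 0 lower. Pecam1 averaged 88.5 FPKM in CM control and 1.09 FPKM in CF control, and Cdh5 92.7 and 1.43 FPKM. Of 9 macrophage markers tested, 1 was called higher and 5 lower in cardiomyocyte cultures. The part of these cells in the levels of C3 and Cd55 was not tested. For C6 the log2 difference of −0.78 (adjusted p = 8.82e-05) ranged from −2.31 to −0.21 with the setting, since its cardiomyocyte values are a few steps above 0.

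After Yap siRNA the order of C3 was turned around. CF Yap had 2.53 times the C3 level of CM Yap (−1.31 ± 0.11, adjusted p = 2.54e-08), so 7 members were then lower in cardiomyocytes and only Cd55 was higher (0.61 ± 0.09, adjusted p = 1.78e-05). The background of that comparison was 36.2% of genes called lower and 36.7% called higher. Of 8 endothelial markers, 7 were called higher and 1 lower in the cardiomyocyte cultures. For C3 the 4 groups ran CF Yap, CM control, CM Yap, CF control from high to low, and no neighbours in that order overlapped. For Cd55 they ran CM control, CM Yap, CF Yap, CF control, again with no overlap. C1r, C1s, C2, Cfb and C6 were highest in CF Yap, then CF control, with the cardiomyocyte groups last and overlapping, and Serping1 had the same order with CM control above CM Yap without overlap.

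The proportions between members were compared as well. These 4 ratios of FPKM were chosen after the values were seen. C1r to C1s was 2.8, 2.51 and 2.42 in CF control and 1.54, 1.62 and 1.59 in CF Yap, and it was 4.93, 4.09 and 4.21 in CM control and 3.71, 4.1 and 4.01 in CM Yap. C1r to its inhibitor Serping1 was 1.96, 1.78 and 1.72 in CF control and 1.26, 1.24 and 1.28 in CF Yap. In both ratios the fibroblast groups did not overlap, while the cardiomyocyte groups did.

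Cfb to C2, the alternative to the classical protease subunit, was 2.73, 3.29 and 2.79 in CF control and 8.47, 8.82 and 8.43 in CF Yap. Cfb to C3 was 12.8, 14.3 and 13.6 in CF control and 5.61, 6.09 and 5.7 in CF Yap. In cardiomyocytes it was higher with Yap siRNA, from 0.319, 0.35 and 0.336 to 0.511, 0.567 and 0.468. Each of these 3 shifts kept the groups apart. A two-sided exact permutation test of 3 libraries against 3 cannot go below p = 0.1, which these shifts and both fibroblast ratios above reached, or 0.16 after Benjamini-Hochberg adjustment over the 8 ratio tests.

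**Figure D3:**
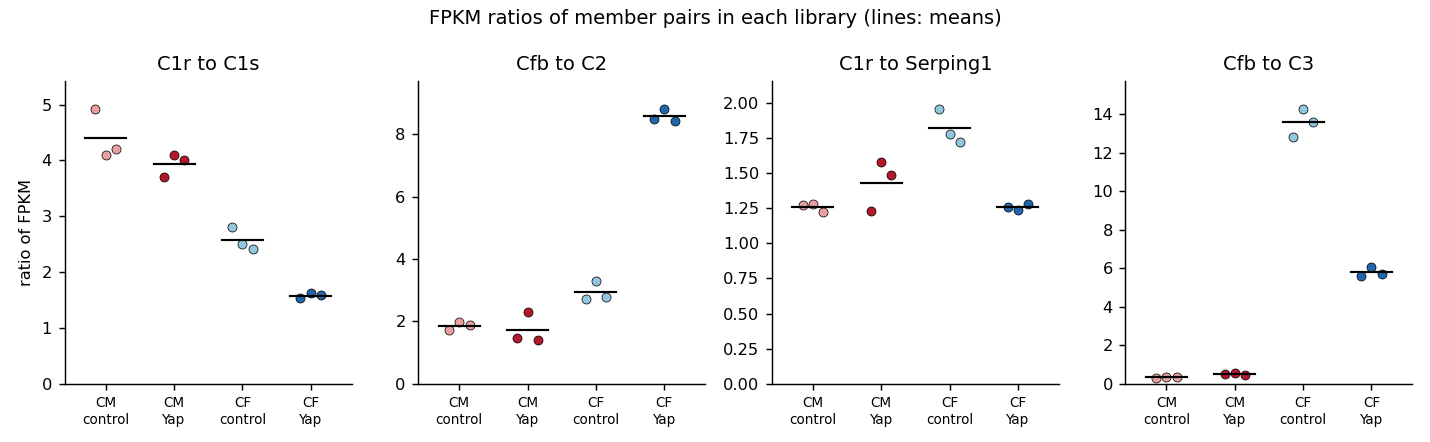
Ratio of FPKM between 2 members in each library (points) with the mean of 3 libraries (lines), on axes from 0. In fibroblasts the mean ratio of C1r to C1s was 2.58 in control and 1.58 with Yap siRNA, and that of Cfb to C2 was 2.94 and 8.57.

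The rest of the complement system was read from a list. Of 43 other complement genes listed by role, 35 were in the table and 25 were tested. In fibroblasts 8 of the 25 were called higher and 1 lower (median 0.15), beside 20.4% and 10.5% of all genes. In cardiomyocytes 3 were called higher and 9 lower (median −0.05), beside 21.0% and 28.7% of all genes. In the difference between cell types 2 were higher and 12 lower (median −0.41), beside 11.7% and 23.7%.

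Among recognition and early pathway genes, C4a, the component that C1s cuts, stood at 26.21, 26.82 and 26.13 FPKM in CF control and at 60.25, 62.25 and 59.25 FPKM in CF Yap (1.17 ± 0.09, adjusted p = 3.42e-07). C4b had 1.26 ± 0.11 (adjusted p = 7.14e-07). C4a and C4b are close copies, so the share of each is uncertain. Colec12, a collectin scavenger receptor gene, rose in fibroblasts (29.5 to 52.3 FPKM, 0.80, adjusted p = 5.46e-05) and fell in cardiomyocytes (11.3 to 6.36 FPKM, −0.74, adjusted p = 5.3e-05).

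The C1q chain genes, known from macrophages, were not called in fibroblasts. C1qa averaged 26.2 FPKM in CF control and 29.2 FPKM in CF Yap (0.15, adjusted p = 0.226) and C1qb 12.5 and 14.1 FPKM (0.17, adjusted p = 0.437). In cardiomyocytes C1qa (−0.34, adjusted p = 0.00601) and C1qb (−0.69, adjusted p = 0.00164) fell. Masp1, a lectin pathway protease gene, rose in cardiomyocytes from 2.17 to 5.59 FPKM (1.06, adjusted p = 7.56e-06).

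Of the other regulators tested, 1 of 4 membrane and 1 of 2 soluble ones were called higher in cardiomyocytes, and 2 of 4 and 1 of 2 in fibroblasts. Over all genes tested 21.0% were called higher in cardiomyocytes and 20.4% in fibroblasts. Cd59, whose membrane protein blocks pore assembly, averaged 141 ± 10.3 FPKM in CM control and 305 ± 29.2 FPKM in CM Yap (SD, n = 3; 1.11 ± 0.08 SE, adjusted p = 8.13e-08). In fibroblasts it averaged 13.4 and 22.2 FPKM (0.68 ± 0.08, adjusted p = 1.52e-05). Clu, the gene of the secreted protein clusterin that binds the terminal complex, averaged 738 and 1154.1 FPKM in cardiomyocytes (0.65 ± 0.08, adjusted p = 7.63e-06) and 33.0 and 81.2 FPKM in fibroblasts (1.28 ± 0.08, adjusted p = 1.6e-08). Cr1l, another membrane regulator gene, averaged 48.4 FPKM in CF control and 52.3 FPKM in CF Yap (adjusted p = 0.201).

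Receptor genes were called lower in 5 of 7 cases in cardiomyocytes, beside 28.7% of all genes tested. Itgam (−0.56, adjusted p = 0.000853) and Itgb2 (−0.36, adjusted p = 0.00108), which form complement receptor 3 on leukocytes, were among them, as were C5ar1 (−0.54, adjusted p = 0.00111) and C1qbp (−0.23, adjusted p = 0.0107). In fibroblasts C1qbp fell (−0.19, adjusted p = 0.0476) and C5ar2, named after its value was seen, rose (1.45 to 4.49 FPKM, 1.16, adjusted p = 5.36e-05). Of the pore genes besides C6, C8a and C9 did not exceed 0.06 FPKM in any library, and C8g was not called (−0.30, adjusted p = 0.284, in fibroblasts).

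**Figure D4:**
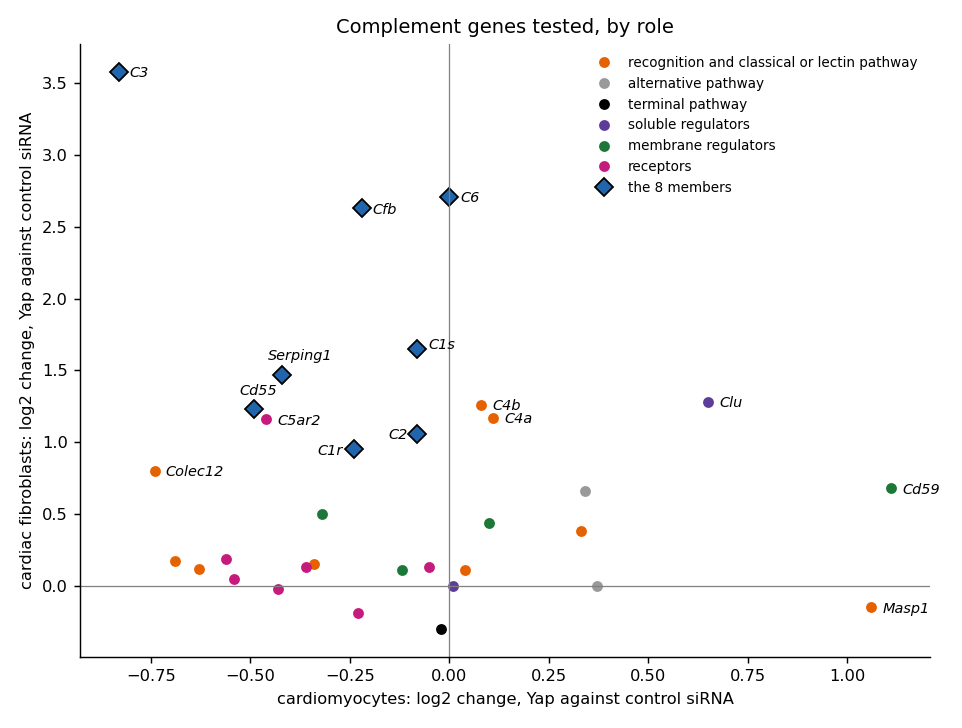
Log2 change with Yap siRNA in cardiomyocytes (x axis) and in cardiac fibroblasts (y axis) for the 8 members (diamonds) and 25 other tested complement genes (circles, coloured by role). The members lie at or left of 0 in cardiomyocytes and at 0.95 or higher in fibroblasts, while Cd59 and Clu lie right of 0 and above 0 in fibroblasts.

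Genes known to induce complement or to mark cytokine signalling in other systems were read from a further list. This list too was chosen with earlier results of these data known. Of 22 tested, 19 were called higher and 0 lower in fibroblasts (median 0.48), beside 20.4% and 10.5% of all genes. In cardiomyocytes 2 were called higher and 10 lower (median −0.23), beside 21.0% and 28.7% of all genes. Cebpd, a C/EBP transcription factor gene of the acute phase response, averaged 175 and 300 FPKM in fibroblasts (0.77 ± 0.10, adjusted p = 4.13e-05) and 101 and 61.1 FPKM in cardiomyocytes (−0.72 ± 0.10, adjusted p = 3.54e-05). Tnf, a cytokine gene, rose in fibroblasts and fell in cardiomyocytes (1.25 ± 0.12, adjusted p = 2.57e-06, and −0.72 ± 0.12, adjusted p = 0.000218). Nfkbia, an NF-kappaB inhibitor and target gene, rose in fibroblasts from 42.8 to 89.2 FPKM (1.04 ± 0.07, adjusted p = 5.38e-08), as did the IL-6 family receptor gene Il6st (0.49, adjusted p = 2.78e-05). In cardiomyocytes Nfkbia fell (−0.21, adjusted p = 0.0203) and Il6st was not called (−0.05, adjusted p = 0.48). The oncostatin M receptor gene Osmr (−0.70, adjusted p = 0.000144) and Ifngr1 (−0.49, adjusted p = 2.78e-05) also fell there. Both rose in fibroblasts (Osmr 0.86, adjusted p = 4.51e-05, and Ifngr1 0.45, adjusted p = 0.000128). Whether these genes act on the members was not tested.

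For each member, the genes with the most similar pattern over the 12 libraries were taken from 8241 genes averaging 5 FPKM or more, by Pearson's r of log2(FPKM + 1). The libraries fall into 4 groups, which set most of each r. C3 was most like Vcam1 (r = 0.9901) and Mt2A (r = 0.9708). Cd55 was most like Cxcl1 (0.9904) and Csf2rb (0.9899). C1s was most like Cp (0.9988) and Thbs2 (0.9984), C1r like Agtr1a (0.9984) and Itm2a (0.9982), and Serping1 like C1qtnf1 (0.9978) and Lgals3 (0.9963). C2 was most like RT1-M3-1 (0.9967) and Slc9a3r1 (0.9961), Cfb like Prr16 (0.9945) and Irak3 (0.9943), and C6 like Dapk1 (0.9928) and Enpp2 (0.9916). Among the members themselves, r over the same 12 libraries was at least 0.85 for each pair of C1r, C1s, Serping1, C2, Cfb and C6, and 0.78 between C3 and Cd55. Between C3 and the members other than Cd55, r ran from −0.13 (C1r) to 0.37 (C6). Between Cd55 and the members other than C3, it ran from −0.72 (C1r) to −0.29 (C6).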

How the data were processed

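RNA of 12 libraries was prepared with a low-input poly-A protocol for the BGISEQ-500, per the labels' protocols. The deposited values are FPKM per the file headers, with 1 column per library. HISAT, Bowtie2 and the rn6 build are named in the submitters' processing notes. No versions, quantification tool or annotation could be read from the sources used here. The table gives no read counts, so no counting error is available. FPKM summed to 563193.5 to 620119.3 per library, and Spearman correlations across genes within a group were 0.989 to 0.992.

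Symbols that were blank or turned into dates (31) were restored by gene ID where RefSeq held it (29). Genes averaging 0.5 FPKM or more over the 12 libraries were tested on the log2(FPKM + 1) scale, where the change of a low gene is understated. All 4 groups were fitted together in limma 3.58.1 (R 4.3.3; variance trend; two-sided). Calls required an adjusted p below 0.05 by the Benjamini-Hochberg method over 11302 genes. Python 3.11.15 did the rest. The fit was tested on simulated data with independent noise, and no result here rests on that test. A result on 1 listed gene is not reported here. SE is limma's standard error, and a fold given as times is a ratio of mean FPKM.

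The members and lists were chosen with earlier results of these data known. All members are named; other complement and cytokine genes are named if called in a Yap comparison and if the higher group averages 5 FPKM or more, up to 4 per role by p, and Cr1l, C8a, C8g, C9 and C5ar2 fall outside that rule and were added after their values were seen. For pattern likeness, the 2 genes of highest r are named. Alternatives covered pseudocounts, filters, scalings, variance trend, a replicate block, smaller fits and leaving out each library. RefSeq tables of build GRCr8 gave promoters and neighbours; no GRCr8 gene positions are used with the values.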

Additional observations from a re-analysis of the deposited data

Results flagged for a closer look

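The response to Yap siRNA differed between cardiomyocytes and fibroblasts for every member tested, by limma's interaction term on the log2 scale (cardiomyocytes minus fibroblasts). The differences were −4.41 for C3, −2.85 for Cfb, −2.71 for C6 and −1.89 for Serping1. They were −1.73 for C1s, −1.72 for Cd55, −1.19 for C1r and −1.14 for C2. C3, Cd55, Serping1 and C1r were called in opposite directions in the 2 cell types, though the cardiomyocyte call of C1r was lost under 8 alternatives. C1s, C2, Cfb and C6 were called in fibroblasts and not in cardiomyocytes.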

How the results depend on the processing

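All calls of the 8 members in fibroblasts, in the difference between cell types and between the cell types under either siRNA kept their direction and their call under each alternative that could be computed. C6 has no value under the filter of 5 FPKM. In cardiomyocytes the calls of C3, Cd55 and Serping1 held under each alternative, and that of C1r did not, as given with its value. Values that changed sign were near 0 and not called. For C2 they were 0.017 under quantile normalization and 0.007 without CM Yap 2. For C6 they were 0.006 under median-of-ratios scaling, 0.033 under quantile normalization, 0.008 without CM control 1 or 3 and 0.037 without CM Yap 1. For C1s they were 0.032 without CM control 2 and 0.002 without CM Yap 3. Leaving out 1 library at a time, the range was −0.219 to 0.007 for C2, −0.029 to 0.037 for C6 and −0.139 to 0.032 for C1s. The cause was not tested. Median-of-ratios scaling moved the median difference of all genes between Yap effects by 0.12, and quantile normalization by 0.14. Replicate numbers were used as a replicate block although same-numbered libraries deviated together by correlations of only −0.12 to 0.14; C3 in fibroblasts then stood at 3.58 and no call of a member changed. Replicate numbers are shared names, not a stated pairing. The number of libraries and low FPKM limit what could be seen for C6 in cardiomyocytes.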

Other observations

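Within each fibroblast group most members shared the same lowest and the same highest library. CF control 1 had the lowest value of all 8 members in its group and CF control 2 the highest of all 8. CF Yap 3 had the lowest value of all 8, and CF Yap 1 the highest of 6. In cardiomyocytes CM control 3 was lowest for 7 of 8 members and CM Yap 3 for 6 of 8. Summed FPKM over all genes was also the lowest of the group in CF control 1 (567800.0), CF Yap 3 (563193.5) and CM Yap 3 (595605.0). CF control 2 was close to CF control 1 in that sum (568196.5). The highest fibroblast sums were in CF control 3 (590420.7) and CF Yap 2 (588918.7). Among CM control libraries the lowest sum was in CM control 2 (573429.8). The spread within CF control was wider than within CF Yap for each of the 8 members as a share of the mean, for example 21.7% against 6.19% for Cfb and 16.5% against 6.83% for C3. The share of all genes with the same order of libraries or the same difference in spread was not counted. Neither pattern is therefore shown to be particular to the members, and its cause was not tested. With 3 libraries a group no library was tested for standing apart.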
